A study of Rattus norvegicus with 6 samples.

Results

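The Gadd45, Btg and Tob genes, together with Cdkn1a, are 9 rat genes whose products slow or stop cell division, and they were followed here on 6 Affymetrix RAT2302 arrays of hippocampal slice cultures. They were taken by name: every probe set that the platform annotation gives to a single listed gene was used, and the 2 probe sets of Btg2 were named through the list of probes that accompanies the study, because the annotation leaves them unnamed. This gave 11 probe sets of the 31099 on the array, and 9 genes of 14219. The cultures were hippocampal slices of Wistar rat pups of postnatal day 4, as the labels give it, kept alive by the roller tube method, and 3 samples received 20 µM gabazine for 90 min while 3 samples were left untreated. Gabazine is an antagonist of GABA-A receptors, through which most fast inhibition in the brain acts, and it is used to drive such slices into strong activity. In each replica, cultures of a pair of littermates were divided between gabazine and no treatment, and the arrays with the same replica number are therefore called pair 1, pair 2 and pair 3. All cells of a slice were extracted together, so that a difference in the number of cells of a type and a difference in the RNA per cell cannot be told apart.

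The 3 Gadd45 proteins are small acidic stress sensors of the nucleus. They bind the kinase Map3k4 at the head of the p38 and JNK cascades, the replication clamp Pcna and the mitotic kinase Cdk1. In the mouse hippocampus, Gadd45b is known as a gene of neuronal activity and has been tied to the removal of DNA methylation at Bdnf and Fgf1. Btg and Tob proteins share a conserved domain that recruits the Cnot7 and Cnot8 deadenylases, which shorten the poly(A) tails of messenger RNAs, and Btg2 is best known in brain for driving neural precursors out of the cell cycle. Cdkn1a, also called p21, blocks cyclin-dependent kinases, and like Btg2 and Gadd45a it is known to respond to DNA damage.

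The promoters of the 4 genes with the highest log2 fold changes are shown because these members were higher on the gabazine arrays in every pair, and because a cAMP response element (CRE), the binding site of the activity-dependent factor CREB, was one of the motifs searched. Each run covers the 250 bases before and the 50 bases from the start site on, in RefSeq's annotation of the GRCr8 assembly, read along the strand of the gene. Capitals mark the TGACG core of the CRE on either strand, the whole CRE (TGACGTCA) and the TATA box (TATAAA). The windows are chr13:48087641-48087940 for Btg2, chr17:13530302-13530601 for Gadd45g, chr7:9430669-9430968 for Gadd45b and chr4:97486750-97487049 for Gadd45a, all on the minus strand.
Btg2: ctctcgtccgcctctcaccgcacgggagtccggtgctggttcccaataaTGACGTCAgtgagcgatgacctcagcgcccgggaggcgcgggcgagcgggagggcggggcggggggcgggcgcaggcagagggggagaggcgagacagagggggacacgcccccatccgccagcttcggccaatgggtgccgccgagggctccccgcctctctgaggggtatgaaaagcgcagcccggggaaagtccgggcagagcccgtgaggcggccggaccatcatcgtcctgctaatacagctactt
Gadd45g: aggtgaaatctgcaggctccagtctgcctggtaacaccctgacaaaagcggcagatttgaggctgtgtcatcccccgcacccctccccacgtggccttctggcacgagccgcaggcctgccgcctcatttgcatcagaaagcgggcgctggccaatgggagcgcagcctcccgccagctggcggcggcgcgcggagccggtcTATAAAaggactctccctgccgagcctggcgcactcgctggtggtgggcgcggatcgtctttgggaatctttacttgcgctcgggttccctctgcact
Gadd45b: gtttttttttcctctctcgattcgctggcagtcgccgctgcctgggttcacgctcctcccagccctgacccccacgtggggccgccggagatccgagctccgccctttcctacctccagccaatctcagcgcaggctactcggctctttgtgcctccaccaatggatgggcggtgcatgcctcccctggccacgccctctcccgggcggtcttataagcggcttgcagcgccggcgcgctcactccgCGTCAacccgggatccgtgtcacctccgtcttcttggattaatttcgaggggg
Gadd45a: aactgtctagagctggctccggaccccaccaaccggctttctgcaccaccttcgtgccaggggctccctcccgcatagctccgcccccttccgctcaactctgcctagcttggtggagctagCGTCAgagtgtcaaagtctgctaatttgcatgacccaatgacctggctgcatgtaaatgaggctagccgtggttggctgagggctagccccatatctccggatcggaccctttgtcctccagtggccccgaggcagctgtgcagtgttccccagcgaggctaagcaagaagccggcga

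Each of the 9 genes had a promoter window. A whole CRE was present in that of Btg2 alone, where it spans the bases -201 to -194 from the start site, and in 1.83% of the 33469 promoter windows of the same length in the table. The TGACG core, which the whole CRE contains on both strands, occurred in 5 of the 9 windows (Gadd45a, Gadd45b, Btg2, Tob2 and Cdkn1a) and in 21.2% of all windows. In Gadd45b it lies across the start site itself, at -3 to 2, and in Gadd45a at -128 to -124. The window of Gadd45g held no TGACG core, and its TATA box lies at -48 to -43. Among the other members only Tob1 held the TATAAA run, much farther from the start site, at -188 to -183. This run occurred in 14.2% of all windows. A CArG box, the site of the factor SRF, occurred in 0 of the 9 windows and in 1.64% of all, and a site for AP-1 (TGANTCA) in 0 of the 9 and in 7.33% of all. A site for Egr factors (GCGNGGGCG) was found in Btg1 and Btg2, against 4.98% of all windows. The 50 bases from the start site of Btg1 on begin with ATG. Whether transcription starts at the listed site was not determined for Btg1 or for any other member, Tob1 and Cdkn1a included. All matches, absences and counts among the 9 windows hold with this limit. The NF-kB site was found in 0 of the 9, against 4.18% of all windows. The CCAAT box (CCAAT) occurred in 5 of the 9 windows and in 37.5% of all, and the GC box (GGGCGG) likewise in 5 of the 9, with 3 copies in Btg2, of which a pair share a base, and in 33.1% of all. Both strands were searched throughout, and such a match is a run of letters, not a bound site.

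**Figure D1:**
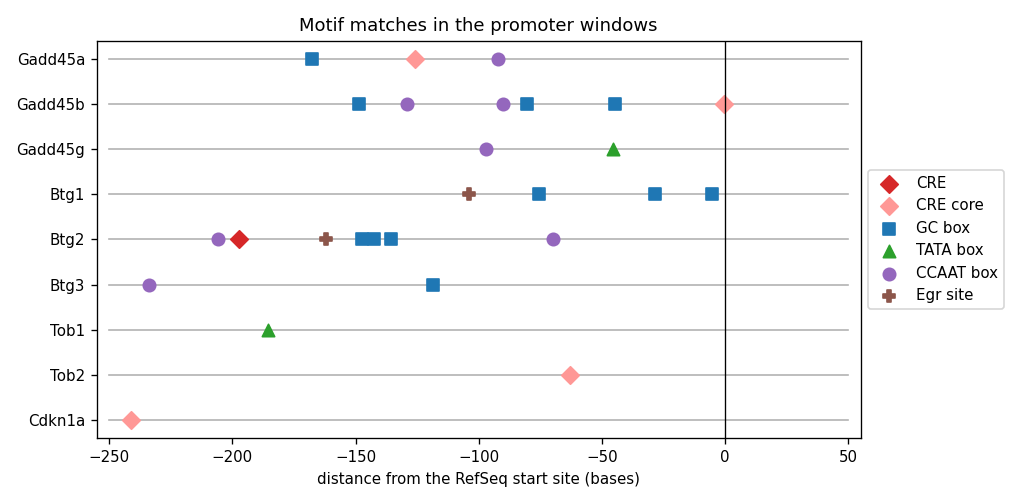
Motif matches in the promoter windows of the 9 genes, drawn by their distance in bases from the RefSeq start site, with 1 row per gene and 1 symbol per kind of motif; a CRE core inside a whole CRE is not drawn again. The whole CRE is seen only in the row of Btg2, and the row of Gadd45g holds a CCAAT box and a TATA box.

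Of the family of Btg and Tob genes, Btg2 stood clearly apart. On its brighter probe set the log2 intensity was 12.25, 10.91 and 12.28 in the gabazine cultures of pairs 1, 2 and 3, against 9.99, 9.06 and 9.87 in the untreated cultures. The lowest gabazine array lay above the highest untreated one, and the 3 pairs gave nearly the same difference. The log2 fold change was 2.17 ± 0.29 (SD, n = 3 pairs), which is 4.51-fold, and single pairs ranged from 3.6-fold to 5.32-fold. The dimmer probe set of Btg2 had 11.61, 10.19 and 10 in the gabazine cultures, against 7.6, 8.36 and 8.61 in the untreated cultures. These groups did not overlap either, but the pairs were far less alike: the difference was 4.01 in pair 1 and only 1.83 and 1.39 in the others, for a log2 fold change of 2.41 ± 1.41 (SD, n = 3 pairs). Without pair 1 this log2 fold change was 1.61, while that of the brighter probe set was 2.13. By the log2 fold change the dimmer probe set ranked 9th and the brighter one 18th of all 31099.

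The probe sets of Btg2 differed most in pair 1, where the log2 ratio of the dimmer one exceeded that of the brighter one by 1.75, against -0.01 in pair 2 and -1.02 in pair 3. Pair 1 also stood apart over the array, with 1265 probe sets at a log2 ratio above 1, against 213 in pair 2 and 99 in pair 3, and in the 3 control transcripts that have probe sets along their length. Beta-actin had a log2 ratio of 2.17 at the 5′ end and of 0.47 at the 3′ end in pair 1, against -0.14 and 0.10 in pair 2 and 0.33 and 0.23 in pair 3. Gapdh had 0.53 at the 5′ end and 0.03 at the 3′ end in pair 1, and between 0.02 and 0.14 at both ends in the other pairs. Hexokinase was high at both ends in pair 1, with 2.10 at the 5′ end and 1.72 at the 3′ end, against -0.30 and -0.28 in pair 2 and 0.00 and 0.12 in pair 3. The position of the Btg2 probe sets along their transcript was not determined, and the part of these differences of pair 1 in their values was not tested.

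The other members of the family had small differences. Tob1 had 11.9, 11.99 and 12.88 in the gabazine cultures of pairs 1, 2 and 3, against 11.67, 11.14 and 12.71 in the untreated ones, so that the groups overlapped. Its log2 fold change was 0.42 ± 0.37 (SD, n = 3 pairs), with most of the difference in pair 2, at 0.85. Btg1, the close relative of Btg2, was bright on all arrays, with 13.41, 13.09 and 13.83 in the gabazine cultures against 13.13, 12.61 and 13.78 in the untreated cultures. It was higher in each pair, by 0.27, 0.47 and 0.05, although the groups overlapped. RefSeq also lists the genes Btg1b and Btg1c in the rat, and whether this probe set separates them from Btg1 was not determined.

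Tob2 had nearly the same value on both arrays of every pair, with 11.28, 9.6 and 10.18 in the gabazine cultures and 11.17, 9.54 and 10.13 in the untreated cultures. Its log2 ratios of 0.11, 0.06 and 0.06 were all above 0, and their mean of 0.08 was the smallest among the members with a constant direction. Btg3 had 11.21, 10.48 and 11.89 in the gabazine cultures against 11.21, 10.52 and 11.62 in the untreated cultures, with identical values in pair 1, a ratio of -0.05 in pair 2 and one of 0.27 in pair 3. Subtracted pair by pair, the log2 ratio of Btg2 on its brighter probe set exceeded that of Btg1 by 1.91 ± 0.50, that of Tob1 by 1.76 ± 0.67, that of Btg3 by 2.10 ± 0.19 and that of Tob2 by 2.10 ± 0.29 (SD, n = 3 pairs). Each of these differences was above 0 in all 3 pairs, and an exact test that flips the signs of 3 pairs reaches a two-sided p of 0.25 at best.

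**Figure D2:**
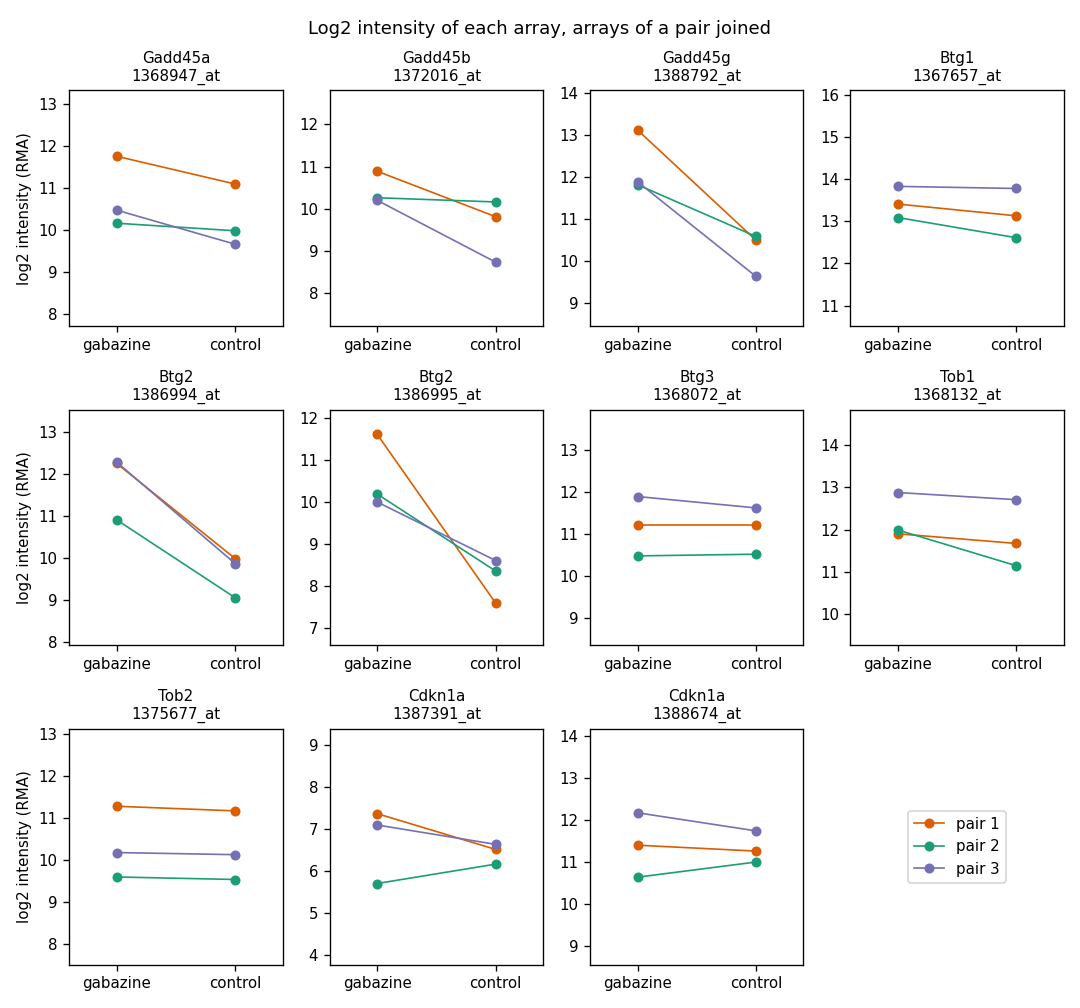
Log2 intensity after RMA of each member probe set, with the gabazine array on the left, the untreated array on the right and a line for each pair; every panel spans the same number of log2 units. Both Btg2 panels and that of Gadd45g slope steeply down towards control in every pair, and the lines of Btg3 and Tob2 are nearly level.

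Among the Gadd45 genes, Gadd45g had the highest log2 fold change. Its log2 intensity was 13.12, 11.82 and 11.89 in the gabazine cultures of pairs 1, 2 and 3, against 10.5, 10.59 and 9.64 in the untreated cultures, and the groups did not overlap. The log2 fold change was 2.03 ± 0.72 (SD, n = 3 pairs), which is 4.09-fold, and it ranked 20th of all probe sets. The ratio was 2.62 and 2.25 in pairs 1 and 3 and only 1.23 in pair 2. Gadd45b, which promotes neurogenesis after activity in the mouse, had 10.89, 10.26 and 10.2 in the gabazine cultures, against 9.81, 10.16 and 8.73 in the untreated cultures. The lowest gabazine value exceeded the highest untreated one by a narrow margin only, since the untreated culture of pair 2 was nearly as bright as the gabazine culture of pair 3. The log2 fold change of Gadd45b was 0.88 ± 0.71 (SD, n = 3 pairs), with 1.08 and 1.47 in pairs 1 and 3 and 0.09 in pair 2. In the study's own RT-PCR, the mean up-regulation with gabazine was larger for Gadd45b than for Btg2. The arrays gave these genes in the reverse order, and the reason was not tested.

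Gadd45a, the member of the family best known for DNA damage, had 11.75, 10.16 and 10.47 in the gabazine cultures against 11.09, 9.98 and 9.66 in the untreated cultures. Its groups overlapped, but it was higher in each pair, with a log2 fold change of 0.55 ± 0.32 (SD, n = 3 pairs) and its smallest ratio, 0.18, again in pair 2. The ratio of Gadd45g exceeded that of Gadd45a by 1.48 ± 0.45 and that of Gadd45b by 1.15 ± 0.38 (SD, n = 3 pairs), above 0 in all pairs in both cases. Gadd45b and Gadd45a did not differ in a constant direction, with a difference of 0.33 ± 0.38 (SD, n = 3 pairs). The same holds for Btg2 and Gadd45g, at 0.14 ± 0.49 (SD, n = 3 pairs). With 3 pairs and a spread of this size, such differences do not show that these genes respond alike.

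All 3 Gadd45 genes thus had their smallest ratio in pair 2, but this was not particular to them. The brighter probe set of Btg2 was lowest there too, at 1.85. Over the 13 activity-regulated genes compared below, the median ratio was 2.03, 1.58 and 2.30 in pairs 1, 2 and 3, although Nr4a3 and Srf were lowest in pair 1. The arrays of pair 2 had a lower overall median, at 7.89 and 7.9 on the gabazine and untreated array, against 8.63 to 8.71 in the other pairs. Levels were therefore also expressed above the median of their own array. Gadd45b then lay 2.18, 2.37 and 1.52 above the median in the gabazine cultures of pairs 1, 2 and 3, against 1.18, 2.27 and 0.03 in the untreated cultures. The small ratio of pair 2 thus stood beside the highest untreated level. Gadd45g showed the same order of the untreated cultures, at 4.41, 3.93 and 3.21 in the gabazine cultures against 1.87, 2.69 and 0.93 in the untreated cultures. Gadd45a had 3.04, 2.28 and 1.78 in the gabazine cultures against 2.46, 2.09 and 0.96 in the untreated cultures, and here untreated pair 1 was highest. Over 13 well known activity-regulated genes the mean was 3.85, 3.56 and 3.59 above the median with gabazine, against 1.99, 2.18 and 1.48 without. Of the untreated cultures, pair 2 thus had the highest mean there as well, but single genes differed. Untreated pair 2 was highest for Fosb and Ier2, among others, and untreated pair 1 for Arc, Egr4 and Junb, among others. For Btg2 on its brighter probe set, untreated pair 2 was not highest. It had 3.55, 3.02 and 3.6 in the gabazine cultures, against 1.36, 1.17 and 1.16 in the untreated cultures. What set the untreated level in pair 2 was not tested.

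**Figure D3:**
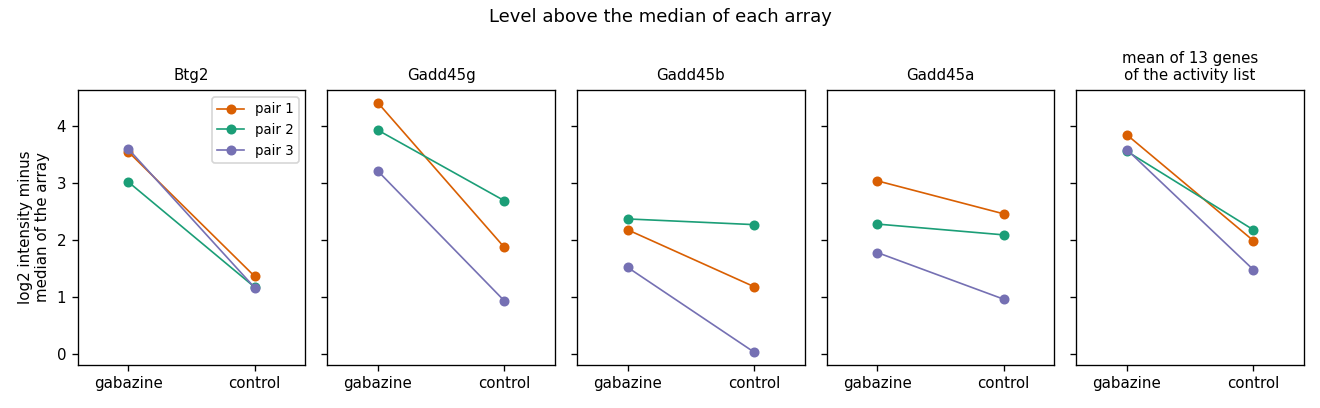
Log2 intensity minus the median of the same array for Btg2 (brighter probe set), the 3 Gadd45 genes and the mean of 13 activity-regulated genes, with gabazine on the left, control on the right and a line for each pair. The untreated point of pair 2 is the highest of the untreated points for Gadd45g and Gadd45b, at 2.69 and 2.27, and the untreated points of Btg2 lie close together.

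Cdkn1a, in contrast, had no constant direction on either of its probe sets. The brighter of them had 11.4, 10.64 and 12.17 in the gabazine cultures of pairs 1, 2 and 3, against 11.26, 11 and 11.74 in the untreated cultures. The ratio was below 0 in pair 2, at -0.36, and the log2 fold change was 0.07 ± 0.40 (SD, n = 3 pairs). The dim probe set of Cdkn1a had 7.37, 5.71 and 7.1 in the gabazine cultures against 6.52, 6.17 and 6.64 in the untreated cultures, and all 6 values lie below the medians of their arrays. It gave 0.28 ± 0.67 (SD, n = 3 pairs), with -0.46 in pair 2, so that the probe sets shared the sign of the difference in each pair. The ratio of Btg2 exceeded that of Cdkn1a by 2.12, 2.21 and 1.98 in pairs 1, 2 and 3, which is 2.10 ± 0.11 (SD, n = 3 pairs).

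Over the members, 8 of the 11 probe sets were higher with gabazine in every pair and 0 lower in every pair, whereas over the whole array 6.92% were higher and 9.49% were lower in this sense. The exceptions were Btg3 and both probe sets of Cdkn1a. Of all probe sets, 16.1%, 24.1% and 25.7% had equal values on both arrays of pairs 1, 2 and 3, and 16345 had no tie. A tied probe set cannot be higher or lower in every pair, so that ties lower these shares of the array. Among the members only Btg3 was tied. The gabazine arrays lay wholly above the untreated ones for 4 of the 11 (both of Btg2, Gadd45g and Gadd45b) and for 0.289% of all probe sets. The test was limma, blocked by pair, with Benjamini-Hochberg adjustment across the 31099 probe sets. At an adjusted p under 0.05 limma called 0 of the 11 members, as it called 0 (0%) of all probe sets, and the adjusted p was 0.747 for each member but Btg3 (adjusted p = 0.758) and Cdkn1a (adjusted p = 0.756 and adjusted p = 0.901). At an unadjusted threshold of 0.05, limma put 4 of the 11 (both probe sets of Btg2, Gadd45g and Gadd45a) on the higher side and 0 on the lower side, and the share on the higher side was 1.84% of all probe sets. Fitted without the pairing, limma called 1 member, the dimmer and more variable probe set of Btg2 (adjusted p = 0.0249), whose adjusted p under the 9 other alternatives lay between 0.679 and 0.865. The brighter Btg2 probe set was not called by limma under any of these 10 alternatives, with an adjusted p between 0.064 (tied probe sets left out) and 0.795 (without pair 3), and 0.0905 without the pairing. The study assigned its p-values from the joint empirical distribution of the ratios of the replicas. As a simple reading of that measure, the share of the array that equalled or exceeded a probe set's ratio in every pair at once was computed. It was 0.5% or less for 8 of the 11 members and for 5.42% of all probe sets. These 8 were not the same 8 that were higher in every pair. They held the dim probe set of Cdkn1a, at 0.376%, although its ratio in pair 2 was -0.46, and not Tob2, at 3.07%. Only 3 pairs were measured, and the members were known from earlier results of these arrays, so that these counts describe the genes and do not test the group.

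**Figure D4:**
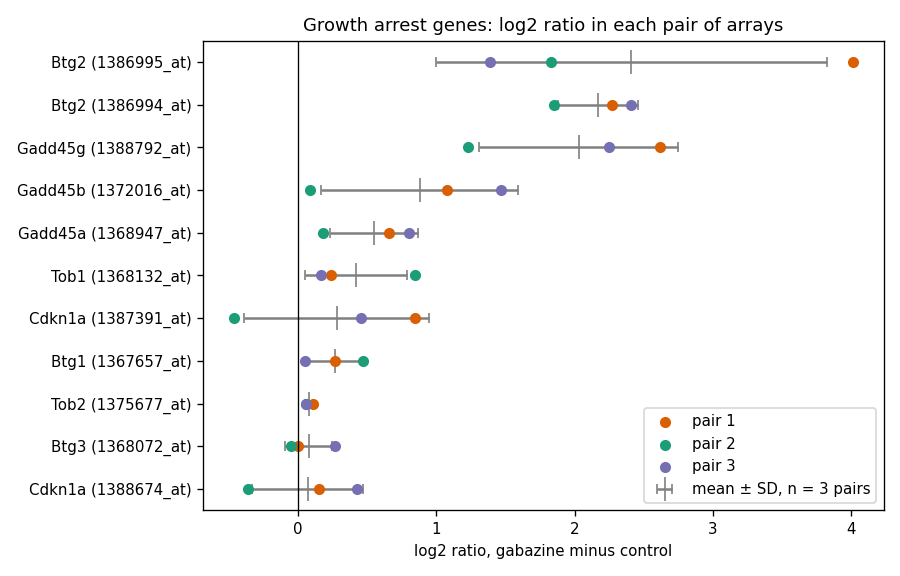
Log2 ratio of gabazine minus control for the 11 member probe sets, with 1 point per pair and, in grey, their mean and its SD. The points of Btg2 and Gadd45g all lie above 1, whereas Btg3 and both Cdkn1a probe sets have points on both sides of 0 or at 0.

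To place these values, the genes with the most similar 3 ratios were sought over the brightest probe set of each gene. Nearest to Btg2 were Egr2, a zinc finger transcription factor, at a Euclidean distance of 0.28 with 2.34, 2.12 and 2.41 in pairs 1, 2 and 3, Dusp1, a phosphatase of MAP kinases, at 0.30, and Nr4a2, an orphan nuclear receptor, at 0.43. Nearest to Gadd45b were Csrnp1, a nuclear protein rich in cysteine and serine, at 0.28 with 0.93, -0.12 and 1.36, Ifrd1, a transcriptional coregulator, at 0.36, and Ppp1r15a, a regulatory subunit of protein phosphatase 1 also known as Gadd34, at 0.36. The nearest to Gadd45g lay farther off. They were the AP-1 subunits Junb, at 0.59 with 3.09, 1.58 and 2.30, and Fosl2, at 0.60, and again Dusp1, at 0.63. The distance rests on 3 pairs and is a description of likeness only.

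The treatment itself was visible in the activity-regulated genes, of which 12 of 13 were higher in all 3 pairs, against 7.79% of all 14219 genes on their brightest probe set, with a median log2 fold change of 2.24. The highest were Fosb (3.15 ± 1.24), Arc (2.78 ± 0.84), Nr4a1 (2.63 ± 0.61) and Nr4a2 (2.42 ± 0.22; SD, n = 3 pairs each), and at the unadjusted threshold 12 were higher and 0 lower, against 2.38% and 2.84% of all genes. These genes are widely known for this response, and several were selected in the study from these arrays, so that they serve as a check of the samples only. Limma called 0 genes of this list or of any list below at an adjusted p under 0.05.

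The lists of partners, targets and related genes of the members had medians near 0. Of 16 measured genes around the Gadd45 proteins in the p38 and JNK cascades and the cell cycle, 1 was higher throughout and 2 were lower throughout the 3 pairs, against 7.79% and 10.8% of all genes, and the median log2 fold change was 0.01. Crip1, a LIM domain protein, had the largest value, 0.25 ± 0.47 (SD, n = 3 pairs), while Map3k4 had -0.18 and Pcna 0.00. Whether Crip1 binds a Gadd45 protein was not determined. Of 17 genes of the CCR4-NOT complex and related poly(A) factors, 3 were higher and 1 lower throughout, against the same shares of all genes, with a median of -0.07. Cnot6l, a deadenylase subunit, had 0.59 ± 0.22 (SD, n = 3 pairs) with 0.56, 0.82 and 0.39 in the pairs, although its other probe set had 0.03. Cnot8, which Btg proteins bind, had 0.11 in pairs 1 and 2 and 0.12 in pair 3, and its paralog Cnot7 had -1.29 in pair 1 and 0.00 and -0.03 in the other pairs. Pan2, a subunit of another poly(A) nuclease, had -0.21 ± 0.11 (SD, n = 3 pairs), and its other probe set had 0.00.

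Of 17 genes of DNA methylation and its removal, 1 was higher and 3 lower throughout, against 7.79% and 10.8% of all genes, with a median of -0.04. The methyltransferase Dnmt3a had 0.26 ± 0.12 and the dioxygenase Tet2 had -0.15 ± 0.05 (SD, n = 3 pairs), and the other probe set of Dnmt3a had -0.21. Bdnf, the neurotrophin tied to Gadd45b in the mouse, had log2 ratios of 2.37, -0.24 and 2.12 on its brightest probe set. Its other probe set had a log2 fold change of 1.07. Pair 2 was the lowest pair of the brightest one, as it was for the median of the activity-regulated genes. Fgf1, the other such target and a growth factor, had ratios of 0.93, -0.18 and 0.15, and its other probe sets had log2 fold changes of 0.15 and 0.18. Both are named here as known targets and not by the size of their values.

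The lists of genes of cell division had medians near 0. At the unadjusted threshold 0 proliferation markers were higher and 1 was lower, against 2.38% and 2.84% of all genes. Of 22 cyclins, cyclin-dependent kinases and their inhibitors, 3 were higher and 4 lower throughout, against 7.79% and 10.8% of all genes, with a median of 0.05. Ccnd3, a cyclin of the first gap phase, had 0.25 ± 0.11 and Ccna2, a cyclin of DNA replication, had -0.15 ± 0.03 (SD, n = 3 pairs). Of 21 markers of proliferating cells, 0 were higher and 6 lower throughout, against 7.79% and 10.8% of all genes, with a median of -0.10, and Aurka, a kinase of the mitotic spindle, had -0.20 ± 0.02 (SD, n = 3 pairs). Mki67, the usual marker of dividing cells, had the lowest value of this list at -0.37, with -0.77, -0.06 and -0.28 in the pairs.

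**Figure D5:**
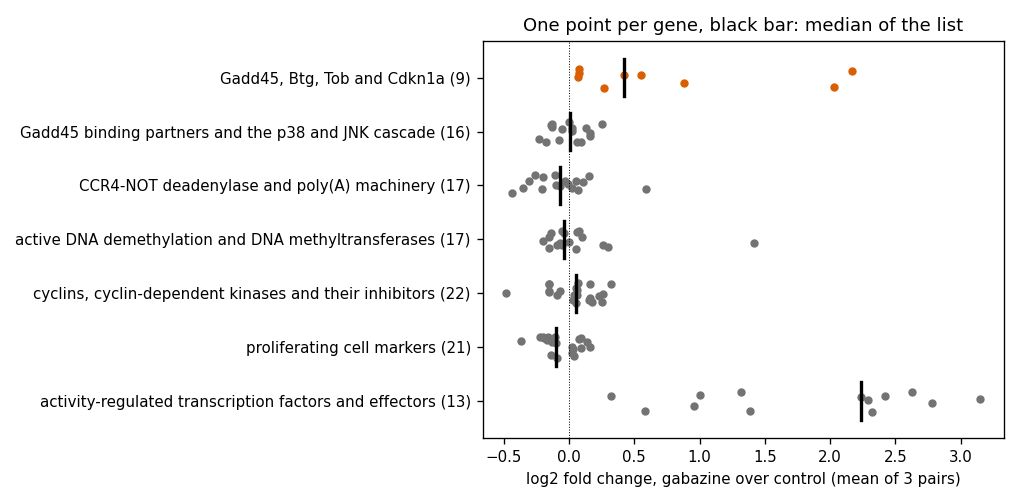
Log2 fold change of gabazine over control on the brightest probe set of each gene, with 1 point per gene, the number of genes in brackets and the median as a black bar, for the 9 member genes and 6 lists. The members spread up to 2.17, the activity-regulated genes have a median of 2.24, and the medians of the other lists lie between -0.10 and 0.05.

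Markers of hippocampal tissue and of its supporting cells were read on the arrays, and their difference within a pair varied between lists and between pairs. On the untreated arrays the mean log2 intensity of 7 markers of excitatory neurons was 9.25 to 10.42 and that of 8 markers of astrocytes was 12.39 to 13.09. That of 7 markers of vascular cells was 6.51 to 7.95, below the median of each untreated array. The mean log2 ratio of the neuronal markers was 0.18, 0.46 and 0.11 in pairs 1, 2 and 3, and that of the astrocyte markers 0.04, 0.32 and 0.06. For 8 markers of interneurons it was 0.33, -0.13 and 0.09, for 9 of the oligodendrocyte lineage 0.15, 0.19 and 0.05, for 8 of microglia 0.05, -0.07 and 0.09 and for 7 of vascular cells 0.04, 0.03 and 0.01. The 9 markers of choroid plexus and meningeal cells stood at 0.76, 0.01 and -0.18. Of these 9, 2 were higher and 1 was lower throughout, against 7.79% and 10.8% of all genes. Their mean level was 9.63, 7.86 and 8.21 in the gabazine cultures against 8.87, 7.85 and 8.4 in the untreated cultures. Ttr, the transthyretin of choroid plexus, named here after its values were seen, had the largest of these ratios at 4.59 in pair 1, against 0.14 and 0.07 in the other pairs. Gadd45g and the dimmer probe set of Btg2 also had their highest ratios in pair 1, and the part of this difference in their values was not tested. Without pair 1 the log2 fold change of Gadd45g was 1.74.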

How the data were processed

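RNA of 3 gabazine-treated and 3 untreated samples was hybridised to 6 arrays. Per the labels and methods, the authors deposited log2 expression values computed by RMA, which corrects background, normalizes and sums up the probes of a set. No version was given in the sources used here. Values were used without further scaling, 0 columns of values were left out, and with no detection measure in the table the signal over background is not known. Conditions and replica numbers came from the sample titles. The pairing rests on the design, in which cultures of the same littermates were divided, and after subtraction of the group means the arrays of a pair correlated at 0.794, 0.664 and 0.853. The annotation names 20832 probe sets with 1 symbol and 436 with several, and 9831 have none.

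The log2 ratio is gabazine minus control within a pair. Its mean was fitted in limma 3.58.1 under R 4.3.3, blocked by pair with 2 residual degrees of freedom, and moderated by eBayes. Adjustment was by Benjamini and Hochberg, across the whole table. The SD is that of the 3 log2 ratios. The fit was run on simulated data with known changes, where only its mean estimate was required to lie near the true change. No bar was set there for calls at the adjusted threshold. A gene was represented by its brightest probe set. The members, lists, tests and alternatives were chosen with earlier results of these data known. Named genes are all members, the 3 nearest genes to Btg2, Gadd45b and Gadd45g, and from each list up to 4 genes in each direction that passed the unadjusted threshold with 1 sign in all pairs, or else the largest. Map3k4, Pcna, Cnot7, Bdnf, Fgf1 and Mki67 were named beyond this rule, for their role, and Ttr after its values were seen. Promoters and their coordinates are from RefSeq, assembly GRCr8. Precision is limited by the number of arrays. The moderated p-values rest on the spread between these 3 replicas, together with that over all probe sets. Some genes of these pathways are not reported here.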

Additional observations from a re-analysis of the deposited data

How the results depend on the processing

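The number of members called at an adjusted p under 0.05 stayed at 0 under 9 alternatives (each pair left out, median centring, quantile normalization, cyclic loess, eBayes with trend and robust, and omission of the 40% dimmest or of all tied probe sets). It was 1 without the pairing, where limma called 14 of all probe sets against 0 with it. By the joint share of ratios, which is not an adjusted p, it was 8, with the dim Cdkn1a probe set among them. The number on the higher side at the unadjusted threshold, 4 with all pairs, ran between 1 and 5 with a pair left out, with 2 without pair 1, 5 without pair 2 and 1 without pair 3, and the loss of a residual degree of freedom enters these counts. Over all probe sets that threshold gave 571 higher and 835 lower, against 83 and 1 without the pairing, 747 and 854, 825 and 1262, or 461 and 648 without pair 1, 2 or 3, and 367 and 527 or 375 and 520 with the dimmest or tied probe sets left out, where fewer were tested. The count of members higher in all pairs, 8, ran between 7 and 10. Among the members, only Btg3 and Cdkn1a turned in direction. Btg3 ran between -0.02 and 0.14 and the brighter probe set of Cdkn1a between -0.11 and 0.29 with a pair left out, and both were below 0 without pair 3. On the dim Cdkn1a probe set the value was 0.00 without pair 1. Of the members with the highest values, the brighter probe set of Btg2 ran between 2.06 and 2.34, Gadd45g between 1.74 and 2.44 and Gadd45b between 0.59 and 1.27 with a pair left out. Under the other alternatives the 3 ran between 2.16 and 2.21, 2.02 and 2.14, and 0.86 and 0.99. Averaging the probe sets of a gene gave 2.29 for Btg2 and 0.18 for Cdkn1a. The dimmer Cdkn1a and the tied Btg3 probe set gave no value where such probe sets were left out. The medians of the lists, run after the data were seen under the 8 alternatives that leave out a pair, rescale the arrays or leave out probe sets, ran between 1.89 and 2.37 for activity-regulated genes, -0.12 and -0.03 for proliferation markers, -0.09 and 0.01 for CCR4-NOT, -0.05 and 0.02 for DNA demethylation, -0.03 and 0.03 for Gadd45 partners and 0.02 and 0.08 for cyclins.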

Other observations

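Of 9 markers of the oligodendrocyte lineage, 3 were higher with gabazine in each pair and 0 lower, against 7.79% and 10.8% of all genes. Their median log2 fold change was 0.16. Among them the myelin genes Mog and Mbp had 0.36 ± 0.14 and 0.24 ± 0.11 (SD, n = 3 pairs), while the other probe sets of Mbp ran between -0.07 and 0.81 and Sox10, a transcription factor of the lineage, had -0.04. Lum, a proteoglycan of meningeal fibroblasts, had -0.30 ± 0.01 (SD, n = 3 pairs), with nearly the same ratio in every pair, while the collagen genes Col1a1 and Col1a2 of the same list had 0.19 and 0.27 and its median was 0.19. The adjusted p in limma was 0.747 for Mog, Mbp and Lum. Gad2, an enzyme of GABA synthesis, had 1.73 in pair 1 but -0.34 and -0.03 in the other pairs, and Gjb6, a gap junction protein of astrocytes, had 2.15 in pair 2 but 0.59 and -0.04 in pairs 1 and 3. The largest values of their lists were 0.47 for Grin2b, a glutamate receptor subunit of neurons, -0.40 for Ptprc, the leukocyte antigen CD45 of microglia, and 0.63 for Kdr, a receptor for vascular growth factor, and each had another probe set, at 0.32, 0.17 and -0.09.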
